A study of Mus musculus with 6 samples.

Results

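The angiopoietins, their receptor and the angiopoietin-like genes of mouse granulosa cells (GCs) were followed as 6 genes, the ligands *Angpt1*, *Angpt2* and *Angpt4*, the receptor gene *Tek*, and *Angptl2* and *Angptl4*. They were taken by gene name, and all 6 were among the 16300 genes of the expression table. GCs line the follicle of the ovary around the oocyte. Dihydrotestosterone (DHT) is a potent androgen that aromatase does not turn into estrogen. RNA-seq compared 3 libraries of control GCs, kept in medium, with 3 libraries of GCs given 25 nM DHT for 24 h. All cells came from wild type C57BL/6J mice aged 8 to 9 weeks, and each library pooled the cells of 5 mice. The cells of both groups had been cultured for 48 h and then starved of serum for 4 h. The labels disagree in part, since they name granulosa cells as the cell type but whole ovary as the extracted material, and the free-text treatment field gives DHT for all 6 samples. A separate treatment characteristic, which gives control for 3 samples and DHT for 3, set the groups.

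The angiopoietins are secreted ligands of Tie2, the receptor tyrosine kinase that *Tek* encodes and that is best known from endothelial cells. ANGPT1 activates Tie2 and steadies vessels, ANGPT2 is mostly a context-dependent antagonist that loosens them, and mouse ANGPT4 is a further ligand of the same receptor. The follicle is among the few adult tissues whose vessels grow and regress in every cycle, and the balance of *Angpt1* to *Angpt2* is often followed there. The angiopoietin-like proteins share the domain layout of the angiopoietins but do not bind Tie2. ANGPTL4 inhibits lipoprotein lipase and its gene is a textbook target of the PPAR nuclear receptors, while ANGPTL2 is a secreted protein studied mainly in inflammation.

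The reads that the deposited values correspond to summed to between 36111177 and 41928585 per library. Of 14 granulosa markers, 11 were above the median level per length, led by *Inha* and *Cyp11a1*. *Fshr*, *Amh* and *Wt1* were below it, with 135 to 168, 63.3 to 196 and 437 to 807 normalized counts. The counts of the 14 genes summed to between 308590 and 321640 in control and between 329780 and 339640 in DHT, without overlap. These sums were carried mostly by *Cyp11a1*, *Gja1*, *Inha* and *Inhba*. The summed endothelial markers (8 genes) ran from 298 to 375 in control and from 292 to 398 in DHT, macrophage markers (7 genes) from 528 to 632 and from 423 to 680, theca markers (3 genes, the sum being almost all *Ptch1*) from 2465 to 2854 and from 2232 to 2385, and oocyte markers (8 genes) from 375 to 895 and from 109 to 705. The sums of these lists leave out markers not analysed here, among them 7 of 15 endothelial ones (*Flt1*, *Tie1*, *Emcn*, *Cldn5*, *Vwf*, *Plvap* and *Sox17*). Also left out were 3 of 10 macrophage markers, the theca genes *Cyp17a1* and *Insl3*, and the granulosa gene *Cyp19a1*. The highest oocyte sum belonged to control replicate 1 and the lowest to DHT replicate 2, where *Zp3* and *Oosp1* were at 0. The libraries are bulk samples, so fewer cells of a type and less RNA per cell cannot be told apart.

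The 3 ligands are related in sequence, and the stretches that 2 of them share decide whether reads can be assigned to one gene. Their coding sequences, read from the GENCODE annotation of GRCm38, are 1494 bases long for *Angpt1*, 1488 for *Angpt2* and 1527 for *Angpt4*. Of the aligned bases, 66.1% are identical between *Angpt1* and *Angpt2*, 62.0% between *Angpt1* and *Angpt4* and 65.2% between *Angpt2* and *Angpt4*. The longest identical run in the transcripts of any pair among the 6 genes is 17 bases, against reads of 150 bases. The 2 longest runs are shown in capitals, from base 1468 of the *Angpt1* and base 1462 of the *Angpt2* coding sequence, and from base 1058 of *Angpt2* and base 1097 of *Angpt4*, each with 20 bases before it.

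Angpt1, shared run with Angpt2: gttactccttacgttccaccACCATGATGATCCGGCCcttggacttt

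Angpt2, shared run with Angpt1: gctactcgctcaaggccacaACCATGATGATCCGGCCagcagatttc

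Angpt2, shared run with Angpt4: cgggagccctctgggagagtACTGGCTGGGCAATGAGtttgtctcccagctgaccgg

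Angpt4, shared run with Angpt2: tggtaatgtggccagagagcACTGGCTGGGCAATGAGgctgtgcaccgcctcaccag

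No shared run reaches the length of a read, so the counts of the ligands can be set side by side.

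DHT-treated GCs had more *Angpt1* and *Angpt4* and less *Angpt2*, *Angptl2* and *Angptl4* than control GCs, and *Tek* was low in both groups. Expression is given as the normalized count, the reads of a gene divided by the size factor of the library. The log2 fold change is the difference of the group means of log2(normalized count + 1), DHT minus control, which understates changes of low genes, and a gene passed the test when its limma p-value, adjusted by Benjamini-Hochberg over 16292 genes, was 0.05 or less. Of the 6 genes, 2 passed higher in DHT, where 6.52% of all genes tested did, and 3 passed lower, where 4.66% did. With an absolute log2 fold change above 1 also asked for, *Angpt1* and *Angpt4* were called higher and *Angpt2* lower, against 0.908% and 0.399% of all genes. The control and DHT libraries did not overlap for any of the 6 genes, which held for 30.6% of all genes tested.

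**Figure D1:**
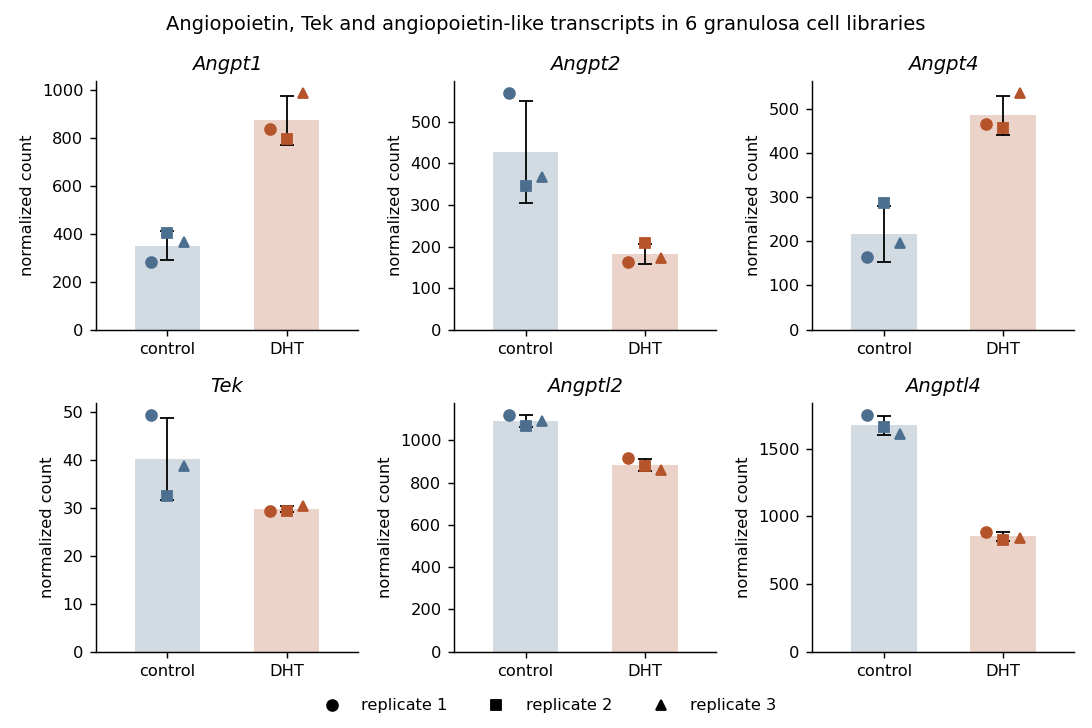
Normalized counts (y axis, linear, from 0) of the 6 genes in the 3 control and 3 DHT libraries, with points for single libraries, bars for group means and error bars of 1 SD. All 3 DHT points lie above the control points for Angpt1 and Angpt4 and below them for the other 4 genes, and control replicate 1 is the control library farthest from the DHT points in every panel.

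*Angpt1* (ENSMUSG00000022309, chromosome 15, 42424723 to 42676977, minus strand) encodes the activating ligand of Tie2. Control replicates 1, 2 and 3 had 283, 403 and 365 normalized counts of it, and DHT replicates 1, 2 and 3 had 836, 793 and 987. Every DHT library was thus above the highest control library, and the lowest value of all was that of control replicate 1. The means of 350.4 ± 61.5 in control and 872 ± 102 after DHT (SD, n = 3) differ 2.49-fold. The log2 fold change was 1.32 (SE 0.13, 95% CI 1.02 to 1.62, adjusted p = 0.00043 by limma), the 79th largest rise of 16292. Of the 5205 exonic bases of *Angpt1*, 737 overlap exons of *Gm17473*, a gene on the other strand that was not analysed here. Whether reads were counted by strand is not given in the sources used here, and reads of the 2 genes in those bases could then not be told apart.

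*Angpt4* (ENSMUSG00000027460, chromosome 2, 151911210 to 151945337, plus strand), the further Tie2 ligand, moved the same way. The control libraries had 164, 286 and 195 normalized counts and the DHT libraries 465, 455 and 535. The groups lay well apart, and the control values were spread more widely around their mean (coefficient of variation 29.4%) than the DHT values (9.05%). *Angpt4* rose from 215 ± 63.4 to 485 ± 43.9 (SD, n = 3), 2.25-fold, with a log2 fold change of 1.20 (SE 0.18, 95% CI 0.80 to 1.61, adjusted p = 0.0032 by limma), the 103rd largest rise.

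The antagonist gene *Angpt2* (ENSMUSG00000031465, chromosome 8, 18690263 to 18741562, minus strand) went the other way. It had 570, 346 and 368 normalized counts in control replicates 1 to 3 and 163, 208 and 172 in the DHT libraries. Control replicate 1 was the highest library by far, while the other 2 control libraries were close together and still above all DHT libraries. Control GCs averaged 428 ± 124 and DHT-treated GCs 181 ± 23.9 (SD, n = 3), a level 2.36 times as high in control. The log2 fold change was -1.21 (SE 0.18, 95% CI -1.62 to -0.79, adjusted p = 0.0035 by limma), the 87th largest fall. Without control replicate 1 it was -0.98, which still passed the test but no longer the threshold of 1 on the log2 scale.

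Within each library the ratio of *Angpt1* to *Angpt2* does not depend on the size factor. The ratio of normalized counts was 0.497, 1.17 and 0.992 in control replicates 1 to 3 and 5.11, 3.81 and 5.74 in DHT replicates 1 to 3. All 3 DHT ratios were above the control ratios, and control replicate 1 was the lowest. The mean ratio was 0.885 ± 0.348 in control and 4.89 ± 0.987 after DHT (SD, n = 3). The log2 ratio differed by 2.53, a 5.76-fold higher ratio in DHT, with a two-sided exact permutation p of 0.1, the smallest that 3 libraries against 3 can give. Scaled by exonic length, since *Angpt1* has 5205 and *Angpt2* 3690 exonic bases, the ratio was 0.352, 0.827 and 0.704 in control and 3.63, 2.70 and 4.07 in DHT, so that *Angpt2* led in all 3 control libraries and *Angpt1* in all 3 DHT libraries. The mean per length was 0.628 ± 0.247 in control and 3.46 ± 0.70 after DHT (SD, n = 3). Without control replicate 1, the log2 ratio differed by 2.16. The ratio of *Angpt4* to *Angpt2* went the same way, at 0.288, 0.828 and 0.531 in control and 2.84, 2.18 and 3.11 in DHT. This is a difference of 2.41 on the log2 scale, or 5.31-fold (exact permutation p = 0.1). These ratios share *Angpt2*, so they are not independent of each other.

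**Figure D2:**
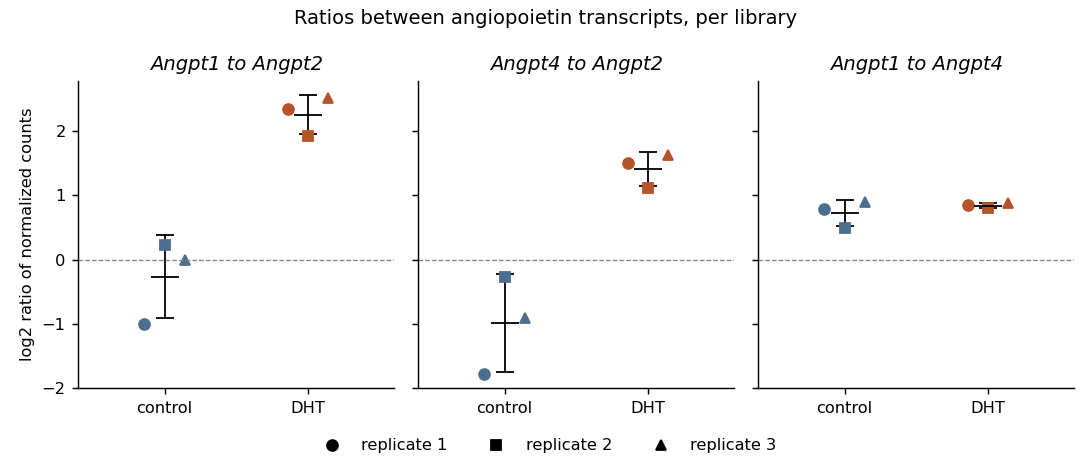
Log2 ratios (y axis) of the normalized counts of 2 ligands in each control and DHT library, with points for single libraries, horizontal bars for means and error bars of 1 SD, and a dashed line where both ligands have equal counts. The ratios to Angpt2 are above the line in all 3 DHT libraries, whereas the DHT ratios of Angpt1 to Angpt4 lie within the range of the control ratios.

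The ratio of *Angpt1* to *Angpt4* differed less between the groups. It was 1.72, 1.41 and 1.87 in control and 1.80, 1.74 and 1.84 in DHT. The DHT values all lay within the range of the control values. The log2 ratio differed by 0.12 between the groups (exact permutation p = 0.5), and by 0.0029 to 0.21 with a library left out, the last without control replicate 3 (exact permutation p = 0.1, the smallest possible). With 3 libraries a group, these p-values do not show that the ratio was constant. The profile of each of the 2 genes over the 6 libraries was closer to the other than to any of the other 4 genes, with a root mean square difference of 0.14 on the log2 scale after centring, against 1.33 between *Angpt1* and *Angpt2*.

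Levels of different genes were compared per length, in TPM, which are reads per exonic base scaled to add up to 1000000 over the 16265 genes with an annotated length in each library. Among the 3 ligands, *Angpt2* made up 55.3%, 31.9% and 39.3% of the summed level in control replicates 1 to 3 and 10.96%, 13.99% and 10.01% in the DHT libraries. It was the leading ligand in control replicates 1 and 3, *Angpt4* led in control replicate 2, and *Angpt4* led in all 3 DHT libraries. The share of *Angpt4* was 33.3% ± 8.27 in control and 48.9% ± 0.58 in DHT, and that of *Angpt1* 24.5% ± 4.40 and 39.4% ± 1.52 (SD, n = 3). The sum of the 3 levels was 26.2 ± 1.91 TPM in control and 39.1 ± 2.02 after DHT (SD, n = 3), with 24.1 to 27.8 in the control and 37.5 to 41.4 in the DHT libraries, so these groups did not overlap either. The shares within a library add up to a whole, and a higher share of one ligand means a lower share of others.

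**Figure D3:**
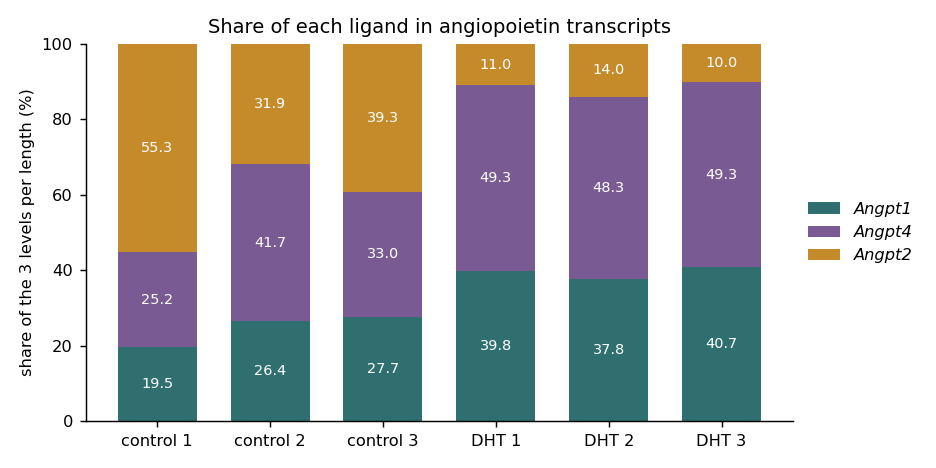
Share of Angpt1, Angpt4 and Angpt2 in the summed level per length of the 3 ligands (y axis, percent) in each of the 6 libraries on the x axis, stacked to 100%. The Angpt2 share runs from 31.9% to 55.3% in control and from 10.01% to 13.99% in DHT.

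*Tek* (ENSMUSG00000006386, chromosome 4, 94739289 to 94874976, plus strand), the gene of the receptor itself, was close to the lower end of what was measured. It had 49.5, 32.5 and 38.9 normalized counts in control against 29.4, 29.5 and 30.5 in DHT, from 50, 35 and 42 and from 30, 27 and 28 reads. The lowest control library was just above the highest DHT library. The means were 40.3 ± 8.56 and 29.8 ± 0.62 (SD, n = 3), with a log2 fold change of -0.40 (SE 0.22, 95% CI -0.90 to 0.085), which did not pass the test (adjusted p = 0.29 by limma). Per length it reached 0.816 ± 0.178 TPM in control and 0.583 ± 0.0091 after DHT (SD, n = 3). It was at percentile 9.18 of the genes measured, below all of its ligands. *Tie1*, the gene of the second Tie receptor, was not analysed here. Of the endothelial markers, *Pecam1* had 50.1 ± 6.14 counts in control against 62.3 ± 11.1 after DHT, and *Egfl7* 121 ± 7.70 and 94.8 ± 11.8 (SD, n = 3), and neither passed the test (adjusted p = 0.38 and 0.15 by limma). The transcription factor gene *Erg* was the one endothelial marker of 8 that passed, where 6.52% of all genes tested passed higher. It rose from 6.93, 19.5 and 10.2 normalized counts to 31.3, 52.4 and 43.5, with a log2 fold change of 1.80 (SE 0.37, adjusted p = 0.016 by limma). Its adjusted p was 0.071 at most with a library left out, and the call was lost without DHT replicate 2 or 3. The part of endothelial cells in the level of *Tek* was not tested.

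*Angptl4* (ENSMUSG00000002289, chromosome 17, 33773750 to 33781830, minus strand), the inhibitor of lipoprotein lipase, had the smallest p-value of the 6 genes. The control libraries had 1748, 1662 and 1606 normalized counts and the DHT libraries 887, 828 and 841. Both groups were tight, with coefficients of variation of 4.28% and 3.61%, and far apart. *Angptl4* fell from 1672 ± 71.6 to 852 ± 30.7 (SD, n = 3), with a log2 fold change of -0.97 (SE 0.052, 95% CI -1.09 to -0.85, adjusted p = 3.0e-05 by limma). Its p-value was the 8th smallest of the 16292 genes, while its fall was the 164th largest. It stood just inside the fold threshold, and with control replicate 3 or DHT replicate 1 left out it was just past it, at up to -1.001. Per length it was the highest of the 6 genes in both groups, at 45.0 ± 2.15 TPM in control and 22.2 ± 1.42 after DHT (SD, n = 3).

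*Angptl2* (ENSMUSG00000004105, chromosome 2, 33216069 to 33247717, plus strand) changed little but evenly. It had 1119, 1065 and 1089 normalized counts in control against 916, 876 and 860 in DHT. The 2 groups were separate, with a smaller gap than for *Angptl4*. The means of 1091 ± 27.1 and 884 ± 28.9 (SD, n = 3) gave a log2 fold change of -0.30 (SE 0.050, 95% CI -0.42 to -0.19, adjusted p = 0.0054 by limma).

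The order of the levels per length differed between the groups. In control it ran from *Angptl4* (45.0 TPM) through *Angptl2* (16.5), *Angpt2* (11.1), *Angpt4* (8.78) and *Angpt1* (6.41) to *Tek* (0.816). The library ranges of *Angpt2* and *Angpt4* overlapped, and so did those of *Angpt4* and *Angpt1*, while those of *Angpt2* and *Angpt1* did not. In DHT it ran from *Angptl4* (22.2) through *Angpt4* (19.1), *Angpt1* (15.4), *Angptl2* (13.0) and *Angpt2* (4.53) to *Tek* (0.583), and no neighbours overlapped.

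Control replicate 1 was the control library farthest from the DHT mean for all 6 genes, on the log2 scale. It had the fewest *Angpt1* and *Angpt4* counts and the most *Angpt2*, *Tek*, *Angptl2* and *Angptl4* counts. Among the 1823 genes that passed the test the same library was the farthest for 50.2%, and among all genes tested for 39.9%. Without it the 5 genes that passed still did, and the log2 fold changes of the 6 genes were between -0.98 and 1.18, with -0.25 for *Tek*.

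Further angiopoietin-like genes were much lower, and of 3 of them none passed the test by limma, edgeR or DESeq2 or had an unadjusted p of at most 0.05 by limma. *Angptl1* had 78.3 ± 1.28 and 86.2 ± 5.22 normalized counts, *Angptl7* 41.9 ± 18.5 and 36.4 ± 17.5, and *Angptl6* 29.4 ± 3.82 and 28.9 ± 8.98 (SD, n = 3). Their adjusted p-values by limma were 0.59, 0.78 and 0.92. The median log2 fold change of these 3 genes was -0.060, against -0.0052 over all genes tested. *Angptl8* was not analysed here.

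Of 10 genes of the Tie receptor complex and its modulators, 1 rose and 2 fell, with a median log2 fold change of -0.083, where 6.52% of all genes tested passed higher and 4.66% lower. *Itgb3*, which encodes integrin beta 3, a partner through which angiopoietins and angiopoietin-like proteins can act, rose from 962 ± 103 to 1474 ± 138 counts (SD, n = 3), with a log2 fold change of 0.62 (adjusted p = 0.0031 by limma). It was also the one gene of 8 on a list of receptors of ANGPTL2 and ANGPTL4 that passed by limma, where *Itgb1* and *Itgb5* had log2 fold changes of -0.13 and -0.057 (adjusted p = 0.097 and 0.58 by limma). *Itgb1* passed lower with DESeq2 (adjusted p = 0.042) and with quantile normalization before limma (adjusted p = 0.031). *Ccbe1*, needed for lymphatic growth, fell with a log2 fold change of -0.46 (adjusted p = 0.0028 by limma). *Pear1*, a receptor first known from platelets, had a log2 fold change of -0.63 (adjusted p = 0.043 by limma) and lost the call in 5 of the 6 fits with a library left out, with an adjusted p of up to 0.15.

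Of 24 genes of the signalling cascade below Tie2, 1 passed higher and 1 lower, and the median log2 fold change was -0.0044. These counts are near the shares over all genes tested (6.52% and 4.66%). *Pik3r2*, a regulatory subunit of PI3 kinase, had a log2 fold change of 0.16 (adjusted p = 0.025 by limma), and *Foxo1*, a forkhead factor that AKT keeps out of the nucleus, one of -0.22 (adjusted p = 0.030 by limma). Each of these calls was lost in 5 of the 6 fits with a library left out, with adjusted p-values of up to 0.099 and 0.11. The adaptor gene *Grb14* had a log2 fold change of -0.19 (adjusted p = 0.063 by limma), and passed lower with DESeq2 (adjusted p = 0.017).

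Of 11 genes of factors known to act on angiopoietin or *Tek* transcription, 5 rose and 2 fell, with a median log2 fold change of 0.19, against 6.52% higher and 4.66% lower and a median of -0.0052 over all genes tested. *Gata3*, a zinc finger factor linked to *Angpt1* and *Tek* in endothelial cells, fell from 411 ± 20.1 to 134 ± 20.3 counts (SD, n = 3), with a log2 fold change of -1.62 (adjusted p = 0.000105 by limma). *Foxo3*, a forkhead factor, rose from 6081 ± 246 to 8824 ± 440 (SD, n = 3), a log2 fold change of 0.54 (adjusted p = 0.00024 by limma). *Klf4* and *Klf2*, flow-responsive factors of endothelium, rose with log2 fold changes of 0.78 and 0.53 (adjusted p = 0.0082 and 0.0089 by limma). *Hif1a*, the oxygen-sensitive factor, rose with a log2 fold change of 0.30 (adjusted p = 0.0021 by limma). The fifth rise was that of *Elk3*, an ETS factor, at 0.19 (adjusted p = 0.039 by limma), a call that was lost in 5 of the 6 fits with a library left out (adjusted p of up to 0.13), and the second fall was that of *Foxo1* given above.

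The target of ANGPTL4 fell along with it. *Lpl*, the gene of lipoprotein lipase, had 7991, 8425 and 9027 normalized counts in control against 6650, 6303 and 5604 in DHT. The groups did not overlap, and the log2 fold change was -0.46 (SE 0.067, adjusted p = 0.0030 by limma). Of 10 genes of the lipoprotein lipase system, 2 rose and *Lpl* was the 1 that fell, against 6.52% and 4.66% of all genes tested. The median log2 fold change of the 10 genes was 0.041. *Sdc1*, a heparan sulfate proteoglycan that can hold lipoproteins and lipases at the cell surface, rose with a log2 fold change of 0.65 (adjusted p = 0.00034 by limma). *Lipg*, the gene of endothelial lipase, rose with one of 0.62 (adjusted p = 0.011 by limma), and without DHT replicate 3 its adjusted p was 0.056.

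Of 19 PPAR receptors and target genes, 1 passed higher and 1 lower, with a median log2 fold change of -0.068, and 17 did not pass. These counts too are near the shares over all genes tested. *Ucp2*, a mitochondrial carrier, rose with a log2 fold change of 0.48 (adjusted p = 0.0018 by limma). *Hadha*, of fatty acid oxidation, had a log2 fold change of -0.14 (adjusted p = 0.040 by limma), a call that was lost in each of the 6 fits with a library left out (adjusted p 0.051 to 0.17). *Cpt1a*, the carnitine transferase that admits fatty acids to mitochondria and a PPAR target as *Angptl4* is, had a log2 fold change of 0.04 (adjusted p = 0.66 by limma).

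**Figure D4:**
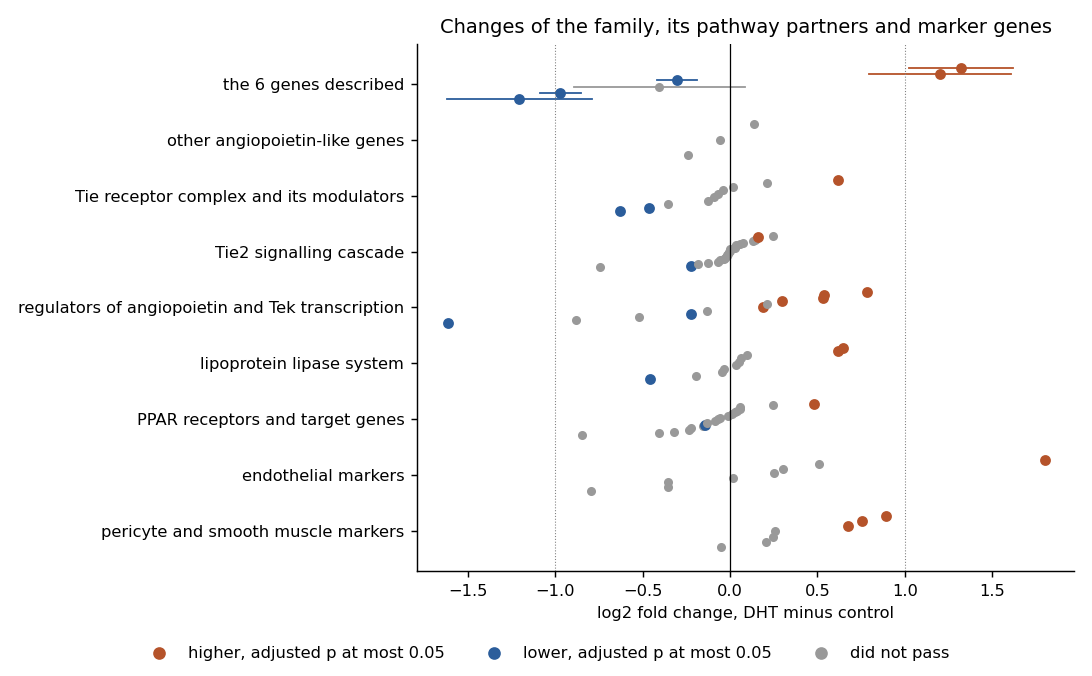
Log2 fold changes, DHT minus control (x axis), of the 6 genes, with 95% confidence intervals as lines, and of the genes of 8 lists in rows (y axis), with 1 point per gene. Red and blue points passed the test higher and lower in DHT, grey points did not pass, and dotted lines mark the fold thresholds, past which only Angpt1, Angpt4, Angpt2, Gata3 and Erg passed.

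Markers of other cells that could hold these transcripts moved in part. Of 7 pericyte and smooth muscle markers, 3 rose, where 6.52% of all genes tested passed higher. The summed normalized counts of the list were 7654 to 11559 in control and 12957 to 13908 in DHT, without overlap. The sum was mostly *Acta2* and *Mcam*. *Mcam*, an adhesion molecule, had 2912, 4621 and 4446 normalized counts in control against 4120, 3736 and 3491 in DHT, with overlap (adjusted p = 0.87 by limma). *Acta2*, smooth muscle actin, rose from 5399 ± 1068 to 9012 ± 762 (SD, n = 3), a log2 fold change of 0.76 (adjusted p = 0.0056 by limma). *Cspg4* and *Myh11* rose with log2 fold changes of 0.89 and 0.67 (adjusted p = 0.019 and 0.013 by limma). Without DHT replicate 2 or 3 both calls were lost, as was that of *Cspg4* without control replicate 2, with adjusted p-values of up to 0.089 and 0.063. *Pdgfrb* and *Des* were low, at 52.4 to 85.1 and 18.6 to 30.5 normalized counts in the 6 libraries, and none of the 7 was at 0. The pericyte markers *Rgs5*, *Kcnj8* and *Abcc9* were not analysed here. Pericytes are a known source of *Angpt1* elsewhere, and their part in its rise was not tested.

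Of 7 macrophage markers *Csf1r* fell, where 4.66% of all genes tested passed lower. Its log2 fold change was -0.64 (adjusted p = 0.027 by limma). *Csf1r* lost the call without control replicate 1, DHT replicate 2 or DHT replicate 3 (adjusted p of up to 0.10). *Lyz2* and *Cd68* had adjusted p-values of 0.82 and 0.82 by limma. None of the 3 theca markers passed by limma or edgeR, and 1 passed by DESeq2 and had an unadjusted p of at most 0.05. *Ptch1*, *Gli1* and *Agt* had adjusted p-values of 0.064, 0.42 and 0.85 by limma. None of the 8 oocyte markers passed by limma, edgeR or DESeq2, and none had an unadjusted p of at most 0.05. *Gdf9*, *Zp2* and *Ddx4* had adjusted p-values of 0.69, 0.48 and 0.999 by limma, and their part in the results on the 6 genes was not tested.

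Of 14 granulosa markers, 2 rose and 4 fell, against 6.52% and 4.66% of all genes tested. The median log2 fold change of the 14 genes was -0.048, against -0.0052 over all genes tested. *Cyp11a1* and *Hsd17b1*, enzymes of steroid synthesis, rose with log2 fold changes of 0.49 and 0.48 (adjusted p = 0.00997 and 0.0044 by limma). *Kitl*, the ligand by which GCs signal to the oocyte, *Inha*, inhibin alpha, and *Esr2*, estrogen receptor beta, fell with log2 fold changes of -0.85, -0.61 and -0.36 (adjusted p = 0.0012, 0.0016 and 0.0015 by limma). *Foxl2*, the factor that keeps GC identity, had a log2 fold change of -0.15 (adjusted p = 0.049 by limma) and lost the call in 5 of 6 fits with a library left out (adjusted p of up to 0.15). *Cyp11a1* lost it without DHT replicate 2 or 3 (adjusted p of up to 0.052).

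Without an intensity trend in limma, 501 genes passed higher and 303 lower. The calls of *Klf2*, *Klf4*, *Lipg*, *Erg*, *Acta2*, *Myh11*, *Cyp11a1*, *Hsd17b1*, *Pear1*, *Pik3r2*, *Foxo1*, *Foxl2*, *Hadha* and *Elk3* were then lost. Of the 6 genes, those that passed kept their calls, and *Tek* did not pass there either.

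For each of the 6 genes the 3 genes with the nearest profile were sought among 11628 genes with a mean of at least 100 normalized counts, by the root mean square difference of the centred log2 values over the 6 libraries. Nearest to *Angpt1* were *Adarb1*, an RNA-editing enzyme, *Nsdhl*, an enzyme of cholesterol synthesis, and *Adora1*, an adenosine receptor, at 0.098, 0.12 and 0.12. Nearest to *Angpt4* were *Ramp1*, a partner of peptide receptors, *Nos2*, a nitric oxide synthase, and *Nog*, an antagonist of bone morphogenetic proteins, at 0.10, 0.11 and 0.11. *Angpt2* was matched less closely, with *Naip1*, *Gsta3* and *Cntnap2* at 0.13, 0.14 and 0.18. The nearest to *Angptl4* was *Spry2*, an inhibitor of receptor tyrosine kinase signalling, at 0.054, followed by *Ass1* and *Fhdc1* at 0.090 and 0.094. *Angptl2* had the closest neighbour of the 6 genes, *Arl5a* at 0.016, with *Abca3* and *Selenoh* at 0.028 and 0.029, and *Tek* was nearest to *Arsg*, *Cmbl* and *Pgd* at 0.054, 0.071 and 0.076. The libraries fall into 2 groups, so these distances mostly follow the size of the difference between them.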

How the data were processed

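RNA was measured in 6 libraries of cultured GCs, 3 control and 3 DHT. Per the labels, reads were trimmed with Trimmomatic 0.36, mapped to GRCm38 with STAR 2.5.2b and counted with featureCounts of Subread 1.5.2, and the annotation release and strand setting are not given in the sources used here. Per gene, the signal the authors deposited is the count divided by the library's size factor, and dividing by the value of 1 read gave whole reads for 100% of the 16300 values of each library (tolerance 0.01). Deposited fold changes and p-values of the authors' own comparison, and a second table of selected genes, were not used.

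Under R 4.3.3, limma 3.58.1 was run with its intensity trend on log2(value + 1) for each gene whose mean was 10 or more, with Benjamini-Hochberg adjustment. The thresholds were an adjusted p of 0.05 and an absolute log2 fold change of 1. Ratios were compared by a two-sided exact permutation test. The alternatives are listed in the closing section and include edgeR 4.0.16 and DESeq2 1.42.0 on the recovered reads, where edgeR called 148 genes higher and 66 lower. In simulated counts of this comparison for 16292 genes, limma recovered 100 of 100 genes changed by 1.5 and 100 of 100 changed by 2 on the log2 scale, with 7 false calls.

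Members and lists were chosen with earlier results of these data known. The genes named are the 6 genes, from each list the genes that passed (up to 6 of the largest changes where more passed, and the highest genes up to 3 where fewer did), and the 3 nearest profiles of each of the 6. *Elk3*, *Mcam*, *Pdgfrb*, *Des*, *Zp3*, *Oosp1*, *Fshr*, *Amh*, *Wt1*, *Gja1* and *Inhba* are named outside this rule, after their values were seen. The methods describe each library as its own pool of 5 mice, with 3 pools per treatment, and do not say whether a control and a DHT library shared a pool. Exonic lengths came from GENCODE vM21 (GRCm38), which matched 16265 genes. Some genes and motifs are not reported here. Figures were drawn with matplotlib 3.10.9.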

Additional observations from a re-analysis of the deposited data

How the results depend on the processing

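Alternatives were pseudocounts of 0.5 and 8, no filter or a mean of at least 50, TMM scaling, quantile normalization, no intensity trend, the replicate block, edgeR, DESeq2 and each library left out. The 6 genes kept their direction and their side of the adjusted p threshold in 95 of 95 refits, where *Tek* could not be fitted at a mean of at least 50. The highest adjusted p was 0.019 for *Angpt1*, 0.046 for *Angpt2*, 0.045 for *Angpt4*, 0.032 for *Angptl2* and 0.0080 for *Angptl4*, and *Tek* ranged from 0.20 to 0.60. The ratio of *Angpt1* to *Angpt2* stayed 2.16 to 2.77 higher on the log2 scale, 2.48 with *Angpt1* and *Angpt4* summed.

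Over all genes, 148 were called higher and 65 lower. At a mean of at least 50 there were 89 and 42, and without the intensity trend 40 were lower. With a library left out, 95 to 195 were called higher and 41 to 91 lower, the lowest counts without DHT replicate 3 and without control replicate 1. By adjusted p alone 1063 were higher and 760 lower, against 501 and 303 without the trend, 633 and 357 with the replicate block, and 581 to 1237 and 350 to 857 with a library left out. Quantile normalization moved the split to 992 and 835.

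Whether the replicate numbers pair the libraries is not known. Where a control and a DHT library had the same number, their deviations correlated at 0.0058, 0.067 and -0.24. The mean correlation for different numbers was 0.028. Correlations from 3 libraries a group cannot decide the question. With the replicate block, 111 genes were called higher and 46 lower, and the adjusted p was 0.0025 for *Angpt1*, 0.017 for *Angpt2*, 0.011 for *Angpt4*, 0.030 for *Angptl2*, 0.000461 for *Angptl4* and 0.40 for *Tek*. The block ended the calls of *Csf1r*, *Cspg4*, *Foxl2*, *Foxo1*, *Hadha*, *Pear1* and *Pik3r2*, and TMM scaling and DESeq2 that of *Foxl2*.

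Of 683 refits of the 43 other named genes, 600 kept the direction and the side of the adjusted p threshold, passing or not. Another 61 lost the call and 5 gained it (*Itgb1* and *Ptch1* with quantile normalization and DESeq2, *Grb14* with DESeq2). The other 17 changed sign, all in genes that did not pass. With a library left out, log2 fold changes ran from -0.0090 to 0.072 for *Cpt1a*, -0.56 to 0.20 for *Angptl7*, -0.29 to 0.080 for *Angptl6*, -0.11 to 0.30 for *Agt*, -0.37 to 0.15 for *Lyz2*, -0.24 to 0.033 for *Cd68*, -0.96 to 0.36 for *Gdf9*, -2.39 to 0.21 for *Zp2* and -0.10 to 0.074 for *Ddx4*, which was also -0.0018 with quantile normalization, -0.0023 with edgeR and -0.0041 with DESeq2. *Elk3*, not among the 43, also lost its call with quantile normalization, no intensity trend, the replicate block and DESeq2. The cause was not tested. Intervals from 3 libraries a group are wide for *Angpt2*, *Angpt4* and *Tek*, and 27 to 50 reads of *Tek* per library limit what can be detected there.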
